A study of Mus musculus with 17 samples.

Results

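The skeletal lineage transcription factors described here are Sox9, Sox5, Sox6, Runx1, Runx2, Runx3, Sp7, Dlx5, Msx2 and Twist1, 10 genes chosen by name out of 18193 genes with a probe set of their own. Earlier results of these data were known when these genes were chosen. A member was measured through every probe set annotated to its symbol alone. Of the 10 genes, 9 had such a probe set, 27 in all, and Runx2 was not analysed here. RNA came from sorted skeletal cells of female C57BL/6 mice on 17 Affymetrix whole-genome mouse arrays, and all values are log2 signals after quantile normalization, with a floor at 5.95. Each array held either mSSCs (mouse skeletal stem cells, 9 arrays) or mBCSPs (bone, cartilage and stromal progenitors, 8 arrays), sorted as AlphaV-positive cells without CD45, Ter119 or Tie2.

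Femoral fracture callus, taken 7 days after injury, gave 12 arrays and uninjured bone 5. Callus arrays were from mice with ovariectomy and a 0.18 mg 17-beta estradiol pellet (OVX + E2, 2 arrays), with ovariectomy (OVX, 2) or with sham surgery (4). On 2 further callus arrays the title says OVX and the treatment label sham with fracture, and on 2 the ovary surgery was not stated. These 4 arrays entered the comparisons of injury and of populations, and in the main fits they were counted in no ovary state. They were still part of the fit behind the ovary-state comparisons, as groups of their own. Through it they entered the shared spread, and so its intervals and p-values, and the population term. Uninjured arrays were from OVX (2) or sham (3) mice. Surgery was done at 8 weeks of age and fracture 6 weeks later. Sample titles were written in 3 forms, used here as the mark of an array set: a surgery-first form (6 arrays, all callus), a three-letter form (4 callus, 3 uninjured) and a cell-first form (2 callus, 2 uninjured). The labels do not say that the arrays came from separate mice, so p-values measure the spread between these arrays, which may be technical.

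These genes are the switches by which a mesenchymal cell takes a cartilage or a bone fate. Sox9 starts the chondrocyte program and acts with Sox5 and Sox6 on the genes of cartilage matrix. Runx2 and, downstream of it, Sp7 (osterix) drive osteoblast formation, with the homeobox factors Dlx5 and Msx2 acting around them, and Twist1 is a mesenchymal basic helix-loop-helix factor that restrains Runx2. Runx1 and Runx3 take part in skeletal development too, but are also blood cell factors, Runx1 in blood stem cells and myeloid cells and Runx3 in lymphocytes, and Sox6 also serves in red cell precursors. A healing fracture at this stage holds both new cartilage and new bone.

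The sorted cells carried the marks of their gate unevenly. Itgav (AlphaV) read 10.51 to 12.78 and Cd200 read 8.15 to 13.55 across the arrays. Ptprc, which encodes the CD45 that the sort excluded, read 6.58 to 13.53 on callus arrays and 13.79 to 14.74 on uninjured arrays. Tek, the gene of the excluded Tie2, read 5.97 to 11.70 on callus arrays and 6.06 to 10.48 on uninjured arrays. Of the other sort markers, Eng (CD105) averaged 7.95 in mSSCs and 9.17 in mBCSPs. Thy1 read 5.95 to 7.60 and Enpep (6C3) 5.95 to 8.82 across the arrays. The mean log2 signal of 15 leukocyte markers spanned 7.62 to 11.85 on callus arrays and 12.32 to 13.22 on uninjured arrays, without overlap, and Ikzf1 on 1 array was the marker reading at the floor. Their summed linear signal was 3887 to 85381 on callus arrays and 140027 to 193203 on uninjured arrays. All 15 were called lower in callus (median log2 difference -2.36), against 17.9% of all genes tested. The uninjured sham mSSC array of the cell-first form stood farthest from the other arrays (median Spearman correlation 0.780, next lowest 0.803).

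The first comparison asked how the factors differ between cells of the fracture callus and cells of uninjured bone. Sp7, Sox9, Twist1, Dlx5, Sox5, Runx3 and Runx1 rose in callus, and Sox6 and Msx2 did not pass the test. The osteoblast factor Sp7 differed most, by 3.47 log2 units (11.1-fold), followed by the chondrocyte factor Sox9 (2.57, 5.94-fold) and Twist1 (2.21, 4.64-fold). Thus 7 of 9 members were called higher and 0 lower, against 20.9% of the 14504 genes tested (limma with Benjamini-Hochberg adjustment). The members were chosen with earlier results of these data known, so this count describes them and is not a test of the set. The median difference was 1.49 over the members and 0.02 over all genes tested. In RNA pooled from many sorted cells, fewer cells of a type and less RNA per cell cannot be told apart. The shift of the leukocyte markers separated the same arrays in the opposite direction, and its part in these differences was not tested. With the title form as a term, the estimate rested on the 6 callus and 5 uninjured arrays of the three-letter and cell-first forms. The surgery-first callus arrays entered through the shared spread and the population term, and were not set against uninjured arrays directly.

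**Figure D1:**
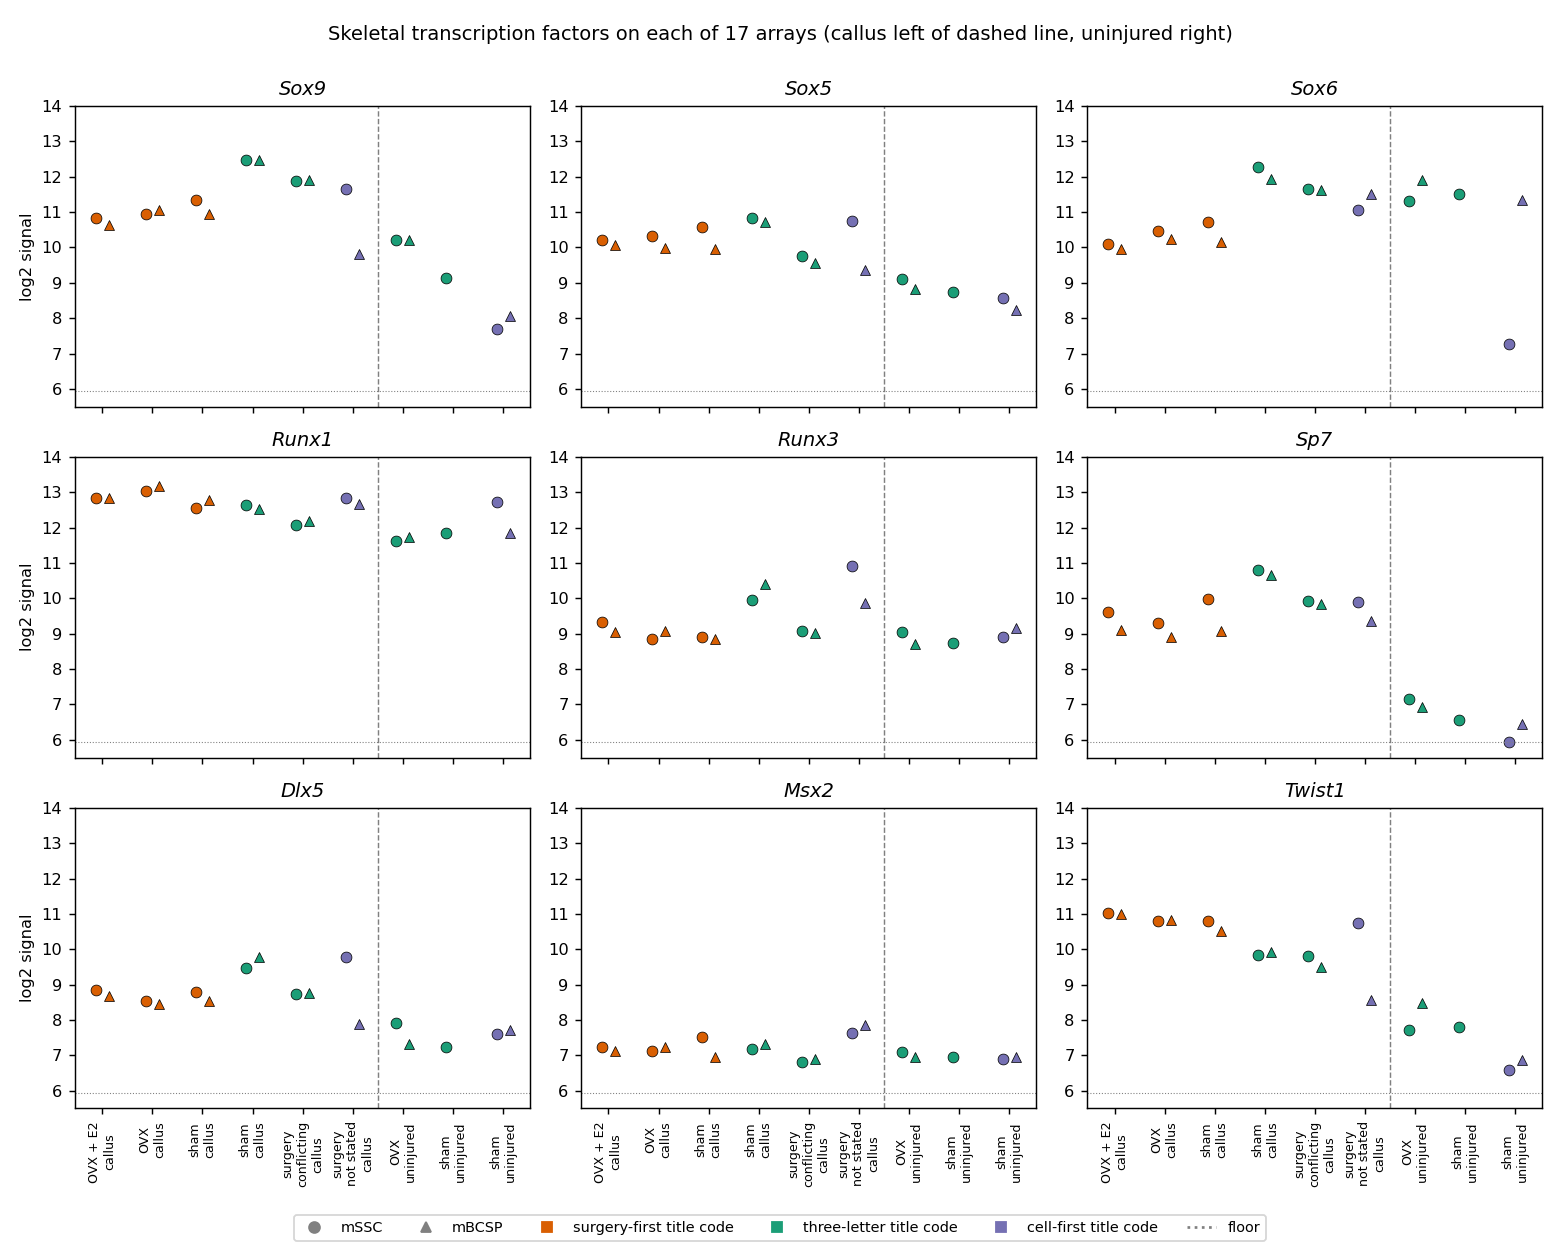
Log2 signal (vertical axis) of the 9 measured transcription factors on each of the 17 arrays, by group along the horizontal axis with callus left of the dashed line and uninjured bone right of it. Circles are mSSCs, triangles mBCSPs, colour is the form of the title code, and the dotted line is the floor. Sp7, Sox5 and Twist1 on callus arrays lie above every uninjured array, while Sox6 falls to 7.27 on a single uninjured array.

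Sp7 read 8.90 to 10.79 on the 12 callus arrays, with a median of 9.73. On uninjured arrays Sp7 read 7.16 and 6.93 (OVX mSSC and mBCSP), 6.56 (sham mSSC, three-letter), 6.45 (sham mBCSP) and 5.95 (sham mSSC, cell-first), the last at the floor. The lowest callus array thus exceeded the highest uninjured one by a clear gap. The fitted difference was 3.47 (standard error 0.25, adjusted p = 9.40e-08, limma). The callus arrays with the highest leukocyte marker level (11.85, mSSC with conflicting surgery labels, and 11.47, mBCSP with surgery not stated) read 9.92 and 9.35 for Sp7. Both stayed below the lowest uninjured leukocyte level (12.32). The mBCSP array was the lowest callus array for Sox9 (9.82), Sox5 (9.36), Dlx5 (7.88) and Twist1 (8.56), though not for Sp7 or the other measured members. The part of leukocytes was not tested.

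Dlx5, a homeobox factor of early osteoblasts, read 7.88 to 9.80 on callus arrays, with a median of 8.76. Its uninjured values were 7.91, 7.33, 7.24, 7.73 and 7.60 in the same order of arrays as for Sp7. The groups touched at 1 callus array, the mBCSPs with surgery not stated, and 11 of 12 callus arrays lay above every uninjured one. The difference was 1.55 (standard error 0.311, adjusted p = 0.000901, limma). Msx2, a homeobox partner and antagonist of Dlx5, stayed dim throughout. It read 6.82 to 7.86 in callus (median 7.20), against 7.08, 6.97, 6.94, 6.96 and 6.90 in uninjured bone, and its difference of 0.34 missed the threshold (95% interval -0.05 to 0.73, adjusted p = 0.163, limma). The second Msx2 probe set sat at the floor on all 17 arrays and was not tested.

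Among the cartilage factors Sox9 read 9.82 to 12.49 in callus, with a median of 11.20. On uninjured arrays Sox9 read 10.21 and 10.20 in OVX mSSCs and mBCSPs, 9.13 in sham mSSCs of the three-letter form, and 8.06 and 7.70 in sham mBCSPs and mSSCs of the cell-first form. A single callus array, again the mBCSPs with surgery not stated, fell inside the uninjured range. The difference was 2.57 (standard error 0.314, adjusted p = 1.19e-05, limma). On the other tested Sox9 probe set no callus array reached down to the uninjured range (lowest 10.68, highest uninjured 10.19), with a difference of 2.73 (adjusted p = 1.17e-06, limma over probe sets). The remaining Sox9 probe set lay near the floor and was not tested.

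Sox5, the partner of Sox9 on cartilage genes, read 9.36 to 10.84 in callus (median 10.13). Its uninjured values were 9.11 and 8.82 in OVX mSSCs and mBCSPs, 8.75 in sham mSSCs of the three-letter form, and 8.24 and 8.57 in sham mBCSPs and mSSCs of the cell-first form. The groups did not overlap, and the difference was 1.49 (standard error 0.261, adjusted p = 0.000297, limma). Of 7 tested Sox5 probe sets, 6 were called higher, with differences of 1.08 to 1.86, and the last was not (0.42, adjusted p = 0.127).

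Sox6, the third of the cartilage trio, read 9.96 to 12.27 in callus (median 10.89), and 11.31 and 11.92 in uninjured OVX mSSCs and mBCSPs, 11.51 in uninjured sham mSSCs of the three-letter form, and 11.36 and 7.27 in uninjured sham mBCSPs and mSSCs of the cell-first form. Of the uninjured arrays, 4 lay within the callus range, and the last was far below all other arrays. The difference of 0.85 had a standard error of 0.547 (adjusted p = 0.242, limma). Without that single low array it was 0.19 (adjusted p = 0.542), and without the uninjured sham mBCSP array 1.36, which passed the threshold (adjusted p = 0.0384). The other 3 Sox6 probe sets gave larger differences, of 1.37 (adjusted p = 0.118), 1.42 (adjusted p = 0.0900) and 1.53 (adjusted p = 0.0499), and the last of these was called.

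Markers of red cell precursors were low on that array too. Their mean log2 signal over the 5 markers with a probe set was 7.11 on the array where Sox6 read 7.27, and 11.56 to 12.03 on the other 4 uninjured arrays, where Sox6 read 11.31 to 11.92. On the surgery-first callus arrays the same mean was 7.04 to 7.53 and Sox6 9.96 to 10.73, and on the three-letter callus arrays it was 8.92 to 11.18 and Sox6 11.62 to 12.27. The cell-first callus arrays read 7.93 for the markers and 11.05 for Sox6 in mSSCs, and 11.77 for the markers and 11.50 for Sox6 in mBCSPs. Among the three-letter callus arrays the order ran the other way, since both sham arrays (markers 9.11 and 8.92) read higher for Sox6 (12.27 and 11.94 in mSSCs and mBCSPs) than both arrays of conflicting surgery (markers 11.18 and 9.80, Sox6 11.66 and 11.62). The low uninjured case was a single array. The part of red cell precursors in the Sox6 signal was not tested, the haemoglobin gene Hba-a1 in the list read 5.95 to 6.36 on all arrays, at or near the floor, and no listed erythroid marker was called between callus and uninjured bone (0 of 4 tested, median -1.41).

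**Figure D2:**
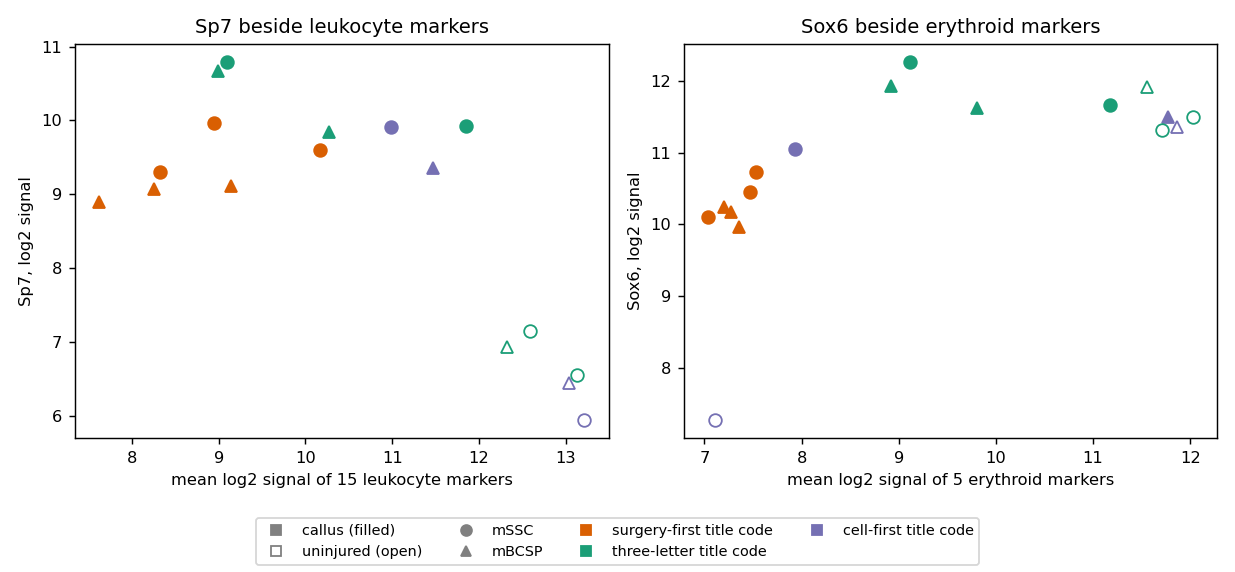
Each point is 1 of the 17 arrays. Left, log2 signal of Sp7 against the mean log2 signal of 15 leukocyte markers, where uninjured arrays (open symbols) sit at the lower right. Right, log2 signal of Sox6 against the mean of 5 erythroid markers, where the open symbol at the lower left is the uninjured sham mSSC array at 7.27. Circles are mSSCs, triangles mBCSPs and colour is the form of the title code.

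Twist1 read 8.56 to 11.03 in callus, with a median of 10.63. In uninjured bone it read 7.72 and 8.48 in OVX mSSCs and mBCSPs, 7.80 in sham mSSCs of the three-letter form, and 6.88 and 6.59 in sham mBCSPs and mSSCs of the cell-first form. The groups did not overlap, although the lowest callus array (8.56) and the highest uninjured one (8.48) nearly met. The difference was 2.21 (standard error 0.345, adjusted p = 0.000108, limma).

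The Runx factors that could be measured changed least among the called members. Runx1 was bright on all arrays, at 12.07 to 13.18 in callus (median 12.73). Its uninjured values were 11.63 and 11.74 in OVX mSSCs and mBCSPs, 11.84 in sham mSSCs of the three-letter form, and 11.85 and 12.74 in sham mBCSPs and mSSCs of the cell-first form. The groups overlapped, and the difference was 0.57 (standard error 0.178, adjusted p = 0.0183, limma). This call was lost without the uninjured sham mBCSP array (0.43, adjusted p = 0.0562) and without the callus mSSC array of unstated surgery (0.55, adjusted p = 0.0801). The 6 Runx1 probe sets disagreed, from 0.23 (adjusted p = 0.544) to 1.47 (adjusted p = 0.00238). The 2 Runx1 probe sets with the largest differences (1.47 and 1.44) separated the groups without overlap.

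Runx3 read 8.85 to 10.90 in callus (median 9.08), and 9.06, 8.72, 8.75, 9.16 and 8.91 on the uninjured arrays in the order used for Sp7. Only 5 of 12 callus arrays lay above every uninjured array, and the surgery-first callus arrays (8.85 to 9.33) overlapped the uninjured range. The difference was 0.997 (standard error 0.275, adjusted p = 0.00864, limma) and its second probe set gave 1.42. Without the title form as a term Runx3 missed the threshold (0.55, adjusted p = 0.209). Across all tested probe sets of the 9 genes, 18 of 25 were called higher and 0 lower, against 19.3% of the 27216 probe sets tested. All callus arrays exceeded all uninjured arrays for Sp7, Sox5 and Twist1, 3 of the 9 genes, against 8.45% of genes tested.

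**Figure D3:**
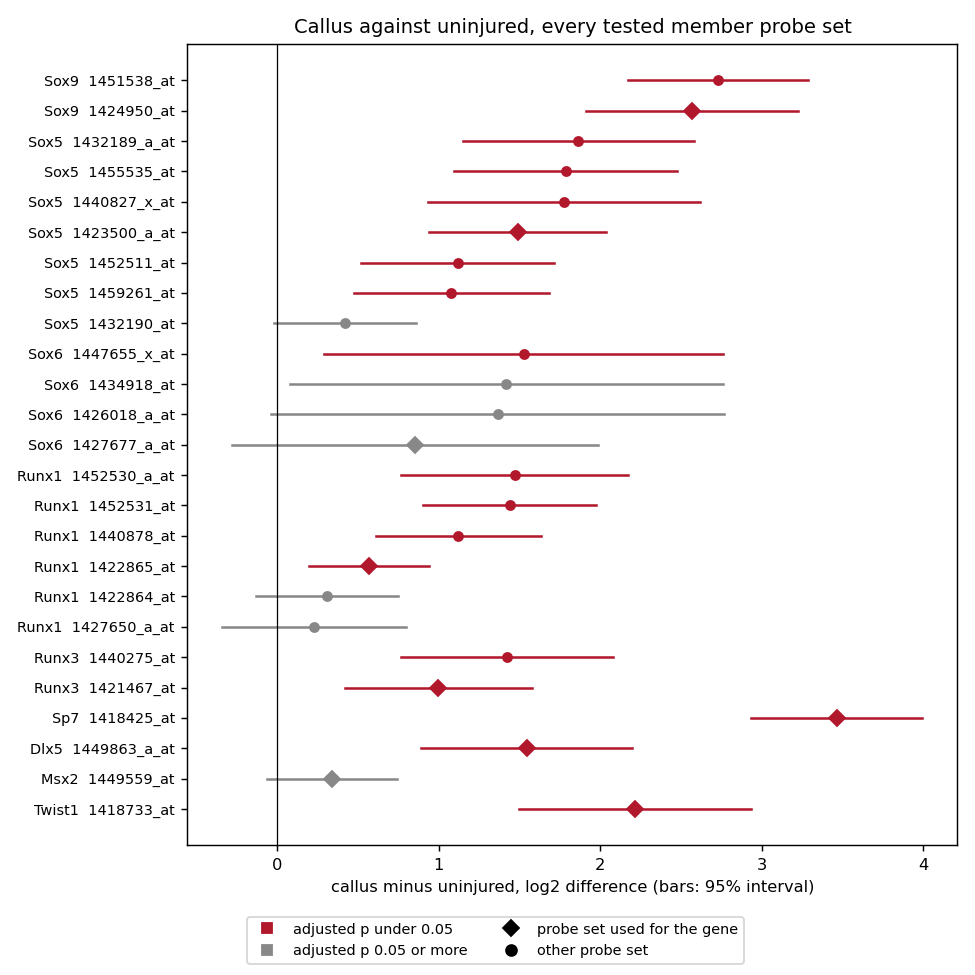
Difference between callus and uninjured arrays (horizontal axis, log2) for the 25 tested probe sets of the 9 genes, with 95% intervals. Red marks an adjusted p under 0.05, and diamonds mark the probe set used for the gene. Both tested Sox9 probe sets exceed 2.5, whereas the 6 Runx1 probe sets spread from 0.23 to 1.47.

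The promoters of Twist1, Sox5 and Runx3, which were all called higher in callus, are shown as the 250 bases before each start annotated by RefSeq in GRCm38.p6. Of the 10 genes, 7 had such an entry, 14 starts in all, and these 3 had the largest differences among them. Motifs of the members' own families were searched on both strands: TGTGGT for Runx factors, ACAANG for Sox factors, GGGCGG (the GC box, tied to the zinc finger family of Sp7), TAATTG for Dlx and Msx factors, and CANNTG (the E box of Twist1). They occurred in 14%, 36.3%, 32.7%, 7.17% and 66.2% of the 32851 promoters of this length. Capitals mark any match. Twist1 lies at chr12:33957421-33957670 (+ strand), Sox5 at chr6:143947107-143947356 (- strand), and the Runx3 starts at chr4:135120395-135120644 and chr4:135152295-135152544 (both + strand).
Twist1: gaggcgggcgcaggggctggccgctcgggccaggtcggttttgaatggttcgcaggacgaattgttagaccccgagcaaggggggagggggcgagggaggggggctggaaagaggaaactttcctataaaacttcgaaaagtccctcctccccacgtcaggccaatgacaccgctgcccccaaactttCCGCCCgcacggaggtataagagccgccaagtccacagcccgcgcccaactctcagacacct
Sox5: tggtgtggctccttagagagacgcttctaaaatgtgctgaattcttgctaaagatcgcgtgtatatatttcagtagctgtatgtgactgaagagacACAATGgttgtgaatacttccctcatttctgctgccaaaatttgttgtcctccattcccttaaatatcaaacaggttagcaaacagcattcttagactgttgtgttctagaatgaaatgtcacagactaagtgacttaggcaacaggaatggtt
Runx3 start 1: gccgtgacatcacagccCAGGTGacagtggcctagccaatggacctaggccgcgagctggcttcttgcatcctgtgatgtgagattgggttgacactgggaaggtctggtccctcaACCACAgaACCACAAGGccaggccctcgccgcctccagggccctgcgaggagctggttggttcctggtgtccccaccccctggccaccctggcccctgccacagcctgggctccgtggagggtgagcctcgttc
Runx3 start 2: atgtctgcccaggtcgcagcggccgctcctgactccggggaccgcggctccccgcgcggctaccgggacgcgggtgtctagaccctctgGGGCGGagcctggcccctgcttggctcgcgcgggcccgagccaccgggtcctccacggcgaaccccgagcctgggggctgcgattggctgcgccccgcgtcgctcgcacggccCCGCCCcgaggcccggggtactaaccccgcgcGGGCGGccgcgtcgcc

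In these windows Twist1 held 1 GC box and Sox5 held 1 Sox match. The first Runx3 start held 2 Runx matches, 1 Sox match that overlaps the second of them, and 1 E box, and its second start held 3 GC boxes. A match is a run of letters and not a site of binding. Expression on these arrays was not resolved by start, so the Runx3 signal belongs to both.

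Within the 2 title forms that hold both conditions, every one of the 9 genes had a higher mean in callus. Sp7 differed by 3.43 within the three-letter arrays (4 callus, 3 uninjured) and by 3.43 within the cell-first arrays (2 and 2). Sox9 differed by 2.35 and 2.86, and Twist1 by 1.77 and 2.91. For Sox6 the differences were 0.29 and 1.96, and for Msx2 0.06 and 0.82, both small among the three-letter arrays. Tested within a form alone, 5 members were called among three-letter arrays, where Runx1 and Runx3 were lost, and 3 among cell-first arrays (Sp7, Sox9 and Twist1). The cell-first fit had both injury and population as terms on 2 callus and 2 uninjured arrays, which left little to estimate the spread. The share of all genes called in these smaller fits is not given here, so the lost calls are not set against it.

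**Figure D4:**
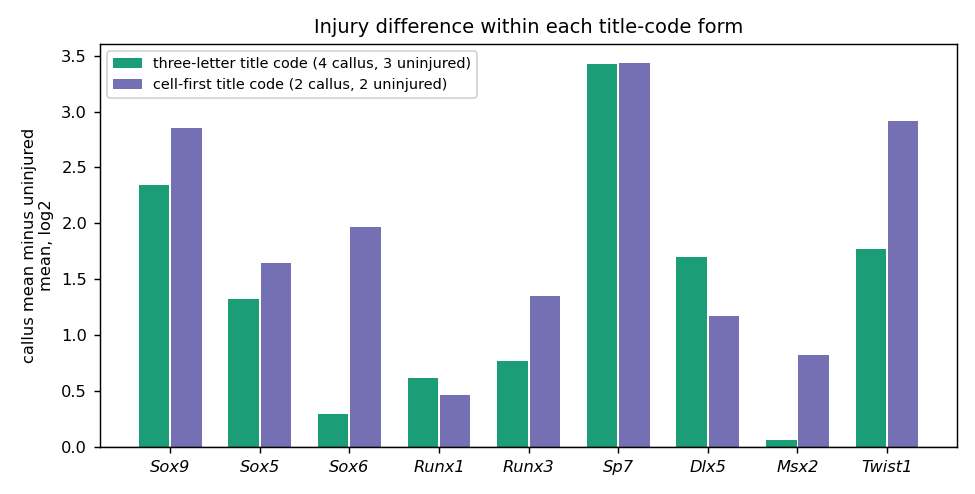
Mean of callus arrays minus mean of uninjured arrays (vertical axis, log2) for the 9 genes within the three-letter arrays (4 callus, 3 uninjured) and the cell-first arrays (2 callus, 2 uninjured). Sp7 has bars of equal height near 3.43, and the three-letter bars of Sox6 and Msx2 are short (0.29 and 0.06).

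Lists of cartilage genes, bone genes and other skeletal transcription factors, chosen with earlier results of these data known, were mostly called higher in callus too. The leukocyte markers separated the same arrays in the opposite direction. Whether the members act on the listed genes in these cells was not tested. All 15 cartilage genes bound by Sox9 were called higher in callus (median 3.39), among them the matrix genes Col9a3 (4.08), Acan (3.06) and Col11a2 (3.8) and the chondromodulin gene Cnmd (4.25). Of 11 tested bone genes of the Runx2 and Sp7 program 9 were called higher (median 2.01), with Alpl, the alkaline phosphatase of mineralizing cells, up by 2.68 and the collagenase gene Mmp13 by 4.65. Of 19 other skeletal transcription factors 14 were called higher (median 1.06), led by the mesenchymal homeobox genes Prrx2 (2.70) and Prrx1 (2.94), the forkhead gene Foxc1 (2.69) and the zinc finger gene Zfp521 (1.84), and 0 were lower. Over all tested genes 20.9% were called higher in callus, and the median difference was 0.02. Of the other marker lists, 4 of 10 neutrophil and 5 of 10 macrophage genes were called lower, against 17.9% of all genes tested, and 0 of 8 endothelial and 0 of 4 muscle genes were called.

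The second comparison set mSSCs against mBCSPs over 8 pairs of arrays from the same group and title form. None of the 9 factors was called, and neither was any gene tested (0% called, 1401 of 14504 at an unadjusted p under 0.05, limma). Sox5 came closest, with a difference of 0.43 (standard error 0.160, unadjusted p = 0.0208, adjusted p = 0.435), and was higher in mSSCs in 8 of 8 pairs, by 0.12 to 1.39. Sp7 was higher in mSSCs in 7 of 8 pairs (difference 0.28, adjusted p = 0.584). For Sox9, Runx1, Runx3, Dlx5, Msx2 and Twist1 the pairs split, with 3 to 5 of 8 higher in mSSCs. Sox6 was also split (5 of 8), and its difference of -0.48 included a pair at -4.09, the cell-first uninjured pair.

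A single pair set the upper end for most genes. In the callus pair of unstated surgery Sox9 read 11.65 in mSSCs and 9.82 in mBCSPs, Twist1 10.74 in mSSCs and 8.56 in mBCSPs, and Dlx5 9.78 in mSSCs and 7.88 in mBCSPs. None of these 3 genes parted by as much in the other pairs. On that pair the erythroid marker mean was 7.93 in mSSCs and 11.77 in mBCSPs and the leukocyte mean 10.98 in mSSCs and 11.47 in mBCSPs. The mean of the muscle markers was 7.66 in mSSCs and 9.03 in mBCSPs, the latter the highest of all arrays. The part of these cells was not tested. Endothelial markers ran lower in mSSCs for all 8 genes (median -2.21) with 0 called, while the leukocyte markers ran higher for all 15 (median 0.52) with 0 called.

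Whether injury acted differently in the populations was tested as an interaction. None of the 9 genes passed, nor did any gene tested (0% called, 826 at an unadjusted p under 0.05, limma). The largest value was that of Sox6, for which callus minus uninjured was 2.09 higher in mSSCs than in mBCSPs (standard error 0.717, unadjusted p = 0.0106, adjusted p = 0.857), and it included the uninjured mSSC array at 7.27. Twist1 (0.88), Sox9 (0.76) and Sp7 (0.65) followed, with 95% intervals that all included 0.

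The third comparison asked whether loss of the ovaries changed these factors in the callus, where OVX and sham arrays of the surgery-first form numbered 2 each, 1 mSSC and 1 mBCSP. None of the 9 genes was called, and 0% of all genes were (293 at an unadjusted p under 0.05, limma). Sox9 read 10.95 and 11.05 in OVX mSSCs and mBCSPs, against 11.35 and 10.95 in sham mSSCs and mBCSPs. Sp7 read 9.31 and 8.90 in OVX, against 9.97 and 9.08 in sham cells, in the same order. For Runx1 the values were 13.04 and 13.18 in OVX, against 12.55 and 12.79 in sham cells, so that both OVX arrays lay above both sham arrays. Runx1 was the only gene of the 9 whose arrays did not overlap in this comparison, against 33.4% of all genes tested. The fitted differences were 0.44 for Runx1 (95% interval -0.10 to 0.98) and -0.42 for Sp7 (-1.14 to 0.30), and -0.16 to 0.16 for the other 7, all with an adjusted p of 1. For Sox9 (-0.15) the interval ran from -1.09 to 0.79.

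**Figure D5:**
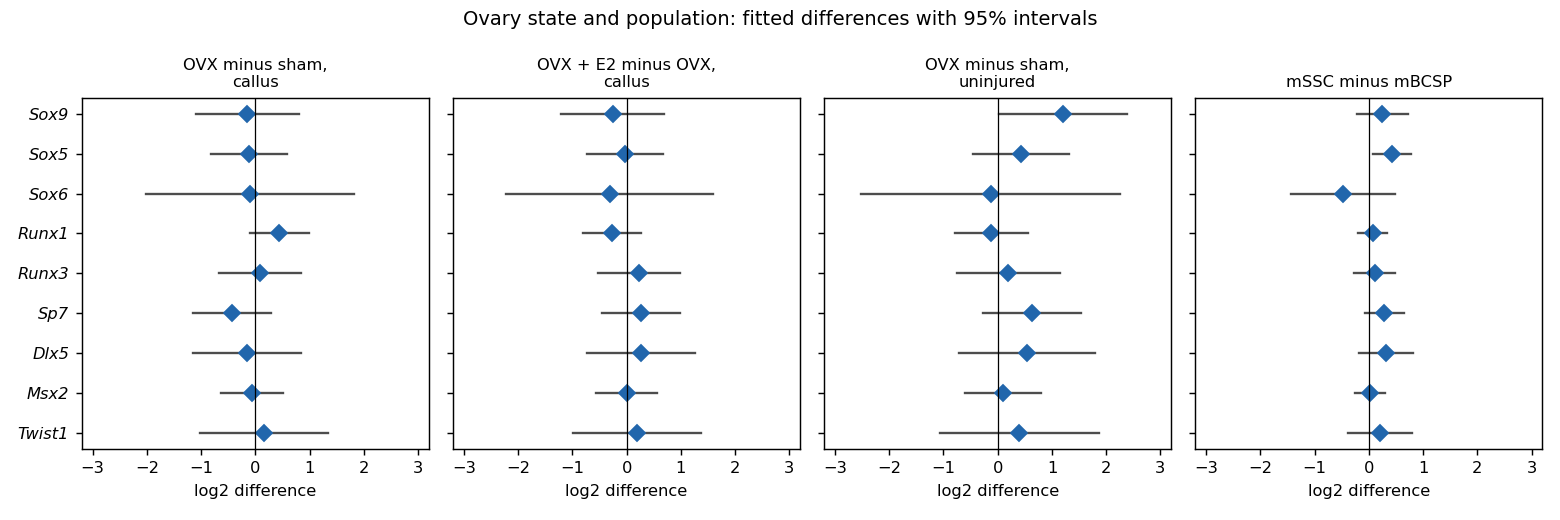
Fitted log2 differences (diamonds) with 95% intervals (bars) for the 9 genes in the comparisons of OVX with sham callus, OVX + E2 with OVX callus, OVX with sham uninjured bone, and mSSCs with mBCSPs. Most intervals include 0. Those of Sox9 in uninjured bone (0.02 to 2.38) and Sox5 between populations (0.08 to 0.78) do not, and both missed the adjusted threshold.

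Estradiol replacement was set against ovariectomy alone in the same way, over 2 OVX + E2 and 2 OVX callus arrays. None of the 9 genes was called, against 0.0207% of all genes tested (3 genes). Twist1 read 11.03 and 11.0 in OVX + E2 mSSCs and mBCSPs, against 10.80 and 10.83 in OVX cells, a fitted difference of 0.20 (95% interval -0.98 to 1.37). Dlx5 read 8.86 and 8.67 in OVX + E2 cells, against 8.55 and 8.46 in OVX cells (0.26, -0.74 to 1.26). For Runx1 the values were 12.84 and 12.84 in OVX + E2 cells, against 13.04 and 13.18 in OVX cells (-0.27, -0.81 to 0.27). The 2 arrays of each group did not overlap for 5 of the 9 genes (Twist1 and Dlx5 higher, Sox9, Sox6 and Runx1 lower in OVX + E2), against 32.9% of all genes tested, and every adjusted p was 1 (limma).

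Sp7 averaged 0.26 higher in OVX + E2 than in OVX callus (95% interval -0.46 to 0.98), and Sox6 0.31 lower (-2.22 to 1.60). The OVX arrays are shared between this comparison and that with sham, so the values of Runx1 (-0.27, and 0.44 against sham) and of Sp7 (0.26, and -0.42 against sham) are not independent. Over the 6 surgery-first callus arrays the range was 0.40 for Dlx5, 0.48 for Runx3, 0.51 for Twist1 and 0.56 for Msx2. It was 0.63 for Sox5 and for Runx1, 0.71 for Sox9, 0.77 for Sox6 and 1.07 for Sp7. These ranges span ovary states and populations, and no range over all genes is given here to set them against. Leukocyte markers ran higher in OVX + E2 than in OVX callus for all 15 genes (median 1.78, 0 called), with means of 10.16 and 9.14 on OVX + E2 arrays and 8.32 and 7.62 on OVX arrays, and their part was not tested. Cartilage genes bound by Sox9 were lower in OVX than in sham callus for 15 of 15 genes, with a median of -0.29 and 0 called. Leukocyte (12 of 15 lower, median -0.65), neutrophil (9 of 10, -0.56), macrophage (8 of 10, -0.49) and endothelial markers (6 of 8, -0.41) also ran lower there, with 0 called. Bone genes (5 of 11 lower, median 0.03) and the other skeletal transcription factors (9 of 19 lower, 0.02) were split.

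In uninjured bone, OVX was set against sham with the title form as a term, which left the contrast resting on 2 OVX arrays and 1 sham mSSC array of the three-letter form. None of the 9 genes was called, against 0.145% of all genes tested (21 genes). Sox9 read 10.21 and 10.20 in OVX mSSCs and mBCSPs, against 9.13 in sham mSSCs of that form, a difference of 1.20 (standard error 0.535, unadjusted p = 0.0462, adjusted p = 0.622, limma). The cartilage genes bound by Sox9 had a median of 1.21 there, 13 of 15 above 0, with 1 called. The other 8 genes had differences of -0.13 (Sox6) to 0.63 (Sp7).

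Sham callus arrays of the surgery-first and three-letter forms carry the same labels of surgery, injury and population, and were compared as a check of array sets. Sox6 read 10.73 and 10.17 on the surgery-first arrays of mSSCs and mBCSPs, against 12.27 and 11.94 on the three-letter arrays. Sp7 read 9.97 and 9.08 on surgery-first arrays, against 10.79 and 10.67 on three-letter arrays. The 2 sets did not overlap for 7 of the 9 genes, against 51.5% of all genes tested, with Sox9, Sox5, Sox6, Runx3, Sp7 and Dlx5 lower and Twist1 higher on surgery-first arrays. None of the 9 genes was called, against 2.91% of all genes tested (422 genes). Sox6 (-1.65), Sox9 (-1.33, adjusted p = 0.145), Runx3 (-1.29, adjusted p = 0.0763) and Sp7 (-1.21, adjusted p = 0.0821) were lower on surgery-first arrays, each by more than any ovary-state difference in callus, and on the second Sox9 probe set the difference of -1.52 passed (adjusted p = 0.00846, limma over probe sets). For Twist1 the difference was positive (0.78, adjusted p = 0.570). The erythroid markers were also lower on surgery-first arrays (4 of 4 tested, median -2.01, 0 called) and the macrophage markers higher (9 of 10, median 1.53, 0 called), and their part was not tested.

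The genes whose signal followed each factor most closely over the 17 arrays were found by Pearson correlation across all tested genes, given as a description of arrays that share injury and title form. For Sox9 these were Rarres1 (0.99), the cartilage collagen gene Col27a1 (0.99) and the cell cycle inhibitor gene Cdkn1a (0.98). For Sox5 they were Kifc3 (0.97), Wwp2 (0.96) and Arf2 (0.95), and for Sp7 Rtl3 (0.98), the cell cycle inhibitor gene Cdkn1c (0.98) and Tlcd3a (0.98). Twist1 was followed by Gpm6b (0.99), Ubtd2 (0.98) and Fndc4 (0.98), and Dlx5 by Tpd52l1 (0.96), Qsox2 (0.96) and Hrct1 (0.95). The genes nearest to Sox6 were Spire1 (0.94), the class II histocompatibility gene H2-Ab1 (0.91) and the glycine transporter gene Slc6a9 (0.90).

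Plcb3 (0.93), Slc10a3 (0.92) and Fer (0.91) lay nearest to Runx1, Acsbg1, Palm2 and Gramd1c (each 0.86) to Runx3, and Prss22 (0.91), Tubb4a (0.88) and Tarbp2 (0.88) to Msx2. Among the factors themselves, Sox9 and Sp7 correlated at 0.91, Sox5 and Sp7 at 0.91 and Sox5 and Dlx5 at 0.90. The nearest pairing by rank was Sox5 for Dlx5, at place 64 of 14503 genes. Sox9 and Sox6 correlated at 0.50 only, and Sox9 and Runx1 at 0.27.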

How the data were processed

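RNA of sorted mSSCs and mBCSPs was hybridized to 17 arrays. Each deposited value is the log2 signal of a probe set on an array. The methods describe 2 rounds of RiboAmp amplification, dChip and Gene Expression Commons, whereas the labels describe standard Affymetrix labelling and the submitters' processing notes name MAS5 without a version, so which tool made the deposited log2 values is unsettled. No absolute scale or depth is known, and the number of arrays limits the precision. Arrays were quantile normalized on the linear scale. Values under the 20th percentile (log2 5.95) were set to it, and features were tested that reached the 40th percentile (log2 7.198) on at least 2 arrays. The probe set of highest mean stood for a gene. Of 45101 probe sets 34945 carried 1 symbol, 932 several and 9160 none, and 64 controls were left out. Gene ids of 34741 matched the GRCm38.p6 annotation and 0 symbols changed.

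Fits used limma 3.58.1 (R 4.3.3, statmod 1.5.0), lmFit and eBayes with trend, with Benjamini-Hochberg adjustment over all features and a threshold of 0.05. Injury was fitted with population and title form, with mSSC and mBCSP arrays of a group as a random block (correlation 0.133, 12 residual degrees of freedom). Other comparisons came from a fit of group, population and title form (10 coefficients, 7 residual degrees of freedom). The code was tested on simulated data. Alternatives covered normalization, floor, filter, probe set choice, form term, block, trend, label readings, the methods' t-test and leaving out each array. Members and lists were chosen with earlier results of these data known. Named genes were the members, up to 4 members of a list by smallest p, and the 3 genes most correlated with each member.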

Additional observations from a re-analysis of the deposited data

Results flagged for a closer look

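Over 36 groups of 4 to 9 arrays, Dixon's test raised 4 flags, and the same Sox6 value was flagged in both the uninjured and the mSSC group. Chance flags about 1 group in 20 where the arrays of a group are alike. The groups here share arrays, and those of a population mix callus with uninjured bone, so that rate is a rough guide only. Sox6 had its lowest value of 7.27 on the uninjured sham mSSC array of the cell-first form, both among uninjured arrays (nearest 11.31) and among mSSC arrays (7.27, nearest 10.11). The same array held the highest uninjured value of Runx1, 12.74 (nearest 11.85). It had the lowest erythroid marker mean of the uninjured arrays (7.11). Msx2 had its highest mBCSP value of 7.86 on the callus array of unstated surgery (nearest 7.32). That mBCSP array also had the highest muscle marker mean of all arrays (9.03).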

How the results depend on the processing

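The count of members called higher in callus was 7 with no normalization between arrays, 6 with no title form term or by the methods' t-test, 5 with three-letter arrays only and 3 with cell-first arrays only, and 6 to 7 with each array left out. Between surgery-first and three-letter sham callus it was 0 in the main fit, 1 with the probe set of widest range, 2 when the conflicting callus arrays were read as OVX, and 0 to 4 with each array left out (Dlx5, Runx3, Sox9 and Sp7 without either callus array of unstated surgery, Sox6 and Sp7 without the uninjured sham mBCSP or mSSC array of the cell-first form). No member was called in the other 5 comparisons under any alternative run, apart from the methods' t-test before adjustment (1 each in OVX against sham callus, OVX + E2 against OVX callus and OVX against sham uninjured bone). In the main fits 20.9% of all genes tested were called higher in callus, and 2.91% were called between surgery-first and three-letter sham callus. The shares of all genes under the alternatives are not given here, so these counts describe the members only. Of the log2 differences, 39 values changed sign, all of them in comparisons where the member was not called.

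With each array left out in turn, differences that could change sign ran as follows. For mSSC against mBCSP, the range was -0.63 to 0.034 for Sox6, -0.045 to 0.12 for Runx1, -0.024 to 0.19 for Runx3, -0.059 to 0.053 for Msx2 and -0.078 to 0.34 for Twist1. For OVX against sham callus, the range was -0.35 to 0.050 for Sox9, -0.70 to 0.49 for Sox6, -0.10 to 0.27 for Runx3 and -0.37 to 0.25 for Msx2. For OVX + E2 against OVX callus, the range was -0.19 to 0.14 for Sox5, -0.71 to 0.087 for Sox6 and -0.078 to 0.074 for Msx2. For OVX against sham uninjured bone, the range was -0.20 to 0.13 for Sox6, -0.21 to 0.0018 for Runx1 and -0.080 to 1.02 for Twist1. Between surgery-first and three-letter sham callus, the range was -0.090 to 0.27 for Runx1 and -0.32 to 0.30 for Msx2. For the interaction, the range was -0.18 to 0.25 for Runx3, -0.11 to 0.62 for Dlx5 and -0.26 to 0.11 for Msx2. With the probe set of widest range, Runx1 was -0.14 for mSSC against mBCSP, Sox5 was 0.17, Sox6 was 0.0050 and Runx3 was -0.35 for OVX against sham callus and Sox9 was 0.086 for OVX + E2 against OVX callus. With no normalization between arrays, Msx2 was -0.017 for mSSC against mBCSP, Sox5 was 0.0012 for OVX + E2 against OVX callus and Msx2 was 0.024 between surgery-first and three-letter sham callus. With no title form term, Runx3 was -0.56 for OVX against sham callus and Sox6 was 1.53 and Runx3 was -0.036 for OVX against sham uninjured bone. With the conflicting callus arrays read as OVX, Runx1 was -0.0067, Runx3 was -0.52 and Twist1 was -0.034 for OVX against sham callus, Sox5 was 0.23 and Msx2 was 0.078 for OVX + E2 against OVX callus and Msx2 was 0.15 between surgery-first and three-letter sham callus. With these arrays read as sham, Sox5 was 0.054 and Msx2 was 0.18 between surgery-first and three-letter sham callus. The cause was not tested. OVX against sham uninjured bone could not be estimated without the three-letter sham mSSC array. With 2 arrays per ovary state the intervals in callus were wide, for Sox6 in OVX against sham callus -2.02 to 1.81.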
